A study of Mus musculus with 2 samples.

Results

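The 10 genes described here act in the nucleolus, from transcription of the ribosomal DNA to processing of its RNA: Rrn3, Ubtf, Polr1a, Polr1b, Fbl, Nop56, Nop58, Dkc1, Npm1 and Ncl. They were taken by symbol from the gene table for GENCODE release M21, which lists 55536 mouse genes. All 10 symbols were found once each, and positions are those of that release on mm10. Both libraries are of polyadenylated RNA, sequenced with paired ends, from G1E-ER4. This mouse erythroid line descends from Gata1-null cells and carries a GATA1 fusion protein that estradiol switches on. Both libraries come from cells held in 10 nM 17beta-estradiol for 24 h and form 1 group of 2 replicates. Since they share a biosample record and no label calls them separate cultures, their spread may be technical. No untreated sample was analysed, so every value is a level in treated cells, and no p-value can be had from 1 group. The expected counts summed to 71485620 in replicate 1 and 14121747 in replicate 2. Replicate 1 was thus 5.06 times deeper, and counting error weighs more on replicate 2.

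Ribosome production begins with RNA polymerase I (Pol I), which transcribes the ribosomal DNA into a long precursor RNA. The precursor is cut, folded and modified inside the nucleolus by processing factors and by small nucleolar ribonucleoproteins (snoRNPs), in which a small nucleolar RNA (snoRNA) guides an enzyme to its site. Box C/D snoRNPs methylate ribose groups and box H/ACA snoRNPs convert uridine to pseudouridine. In mammals most snoRNAs lie in introns of other genes, and genes for nucleolar and ribosomal proteins are frequent hosts. Red cell precursors make ribosomes at a high rate early and shut production down as they mature.

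All 10 erythroid markers were at 1 TPM (transcript abundance corrected for length and library total) or more in both libraries. All 5 markers of mast cells and basophils had 0 counts in both libraries, and none of the granulocyte and monocyte, lymphoid, or fibroblast and endothelial markers reached 1 TPM in both libraries. Of 5 megakaryocyte markers, 2 did, and the summed level of the 5 was 5.05 TPM in replicate 1, against 8.40 TPM in replicate 2.

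Of the 10 genes, 10 reached 1 TPM in replicate 1 and 8 in replicate 2, so 8 were detected in both. Among all 22028 protein-coding genes 33.1% were detected by the same rule. The median gene level of the 10 was 24.7 TPM in replicate 1, against 12.6 TPM in replicate 2. The median of the protein-coding genes detected in both was 20.2 TPM in replicate 1, against 15.2 TPM in replicate 2. Nop58 and Dkc1 missed the threshold, both in replicate 2, where the authors' posterior mean estimates of 2.88 TPM and 1.79 TPM would have passed it. These estimates rest on 4 and 5 expected counts, so passing by them is weak evidence of detection. In bulk RNA, fewer cells that express a gene and less of its RNA per cell cannot be told apart. By mean level the order was Ncl, Fbl, Ubtf, Rrn3, Nop56, Npm1, Nop58, Polr1b, Polr1a and Dkc1. Neighbours in this order had overlapping ranges over the libraries in all but 3 places: Ncl was above Fbl, Ubtf above Rrn3, and Polr1a above Dkc1 in both libraries. This order is that of gene TPM. Over protein-coding transcripts Fbl was first by mean and above Ncl in both libraries, and Dkc1 was above Polr1a in both. Ubtf was above Fbl by this measure in replicate 2, at 33.46 TPM against 19.75 TPM. In the authors' second transcript table, made directly from reads, Dkc1 was above Polr1a in replicate 2, at 4.76 TPM against 0.785 TPM for Polr1a.

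**Figure D1:**
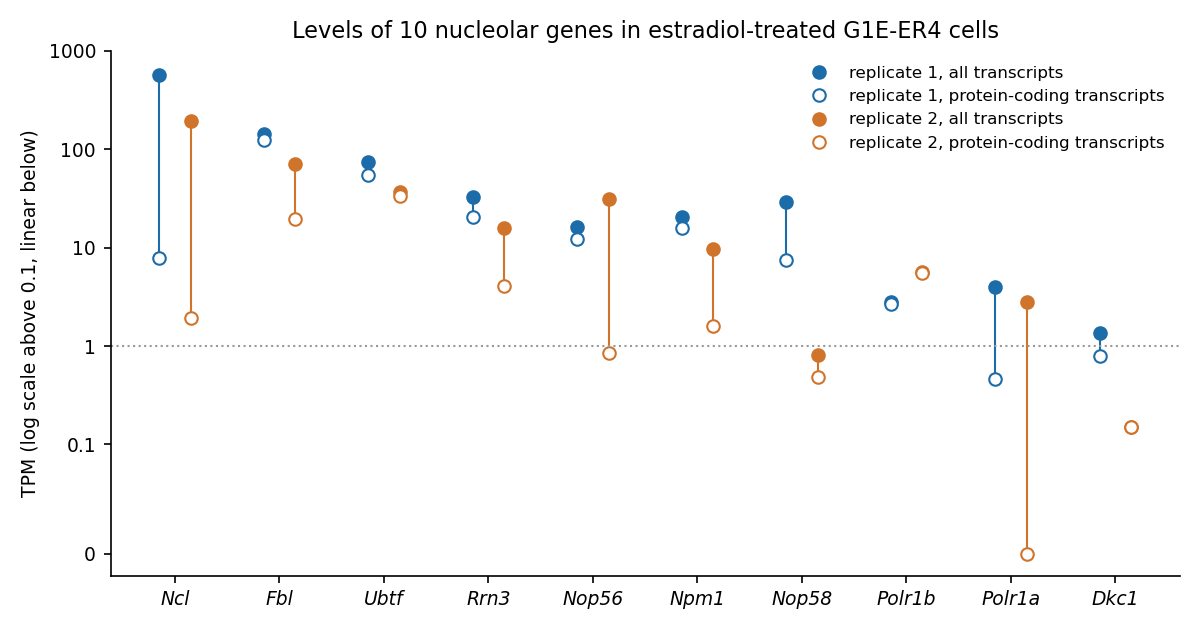
TPM of the 10 genes in replicate 1 (blue) and replicate 2 (orange), ordered by mean gene level; filled points sum all transcripts of the gene and open points sum only its protein-coding transcripts, and the dotted line marks 1 TPM. Ncl, at 564 TPM and 192 TPM over all transcripts, is at 7.92 TPM and 1.91 TPM over its protein-coding transcripts.

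Rrn3 (chr16:13780708-13814839, plus strand), also called TIF-IA, is the initiation factor that makes Pol I competent to start and is a main target of growth control. It was at 32.5 TPM in replicate 1, against 15.7 TPM in replicate 2, with a mean of 24.1 ± 11.9 TPM (SD, n = 2). The annotation gives it 2 transcripts. The protein-coding Rrn3-201 held 63.5% of the gene's TPM in replicate 1 and 25.7% in replicate 2, and the retained-intron transcript Rrn3-202 held the rest. The retained-intron transcript had nearly the same level in both libraries, 11.9 TPM in replicate 1, against 11.7 TPM in replicate 2. The protein-coding transcript was at 20.6 TPM in replicate 1, against 4.04 TPM in replicate 2. The read-based table gave another picture. There Rrn3-202 was at 10.2 TPM in replicate 1, against 1.10 TPM in replicate 2, Rrn3-201 was at 15.6 TPM and 1.35 TPM, and the share of Rrn3-201 was 60.5% in replicate 1 and 55.2% in replicate 2.

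Ubtf (chr11:102304560-102319742, minus strand) encodes UBF, an HMG-box protein that coats active ribosomal genes and keeps them open. It was at 73.7 TPM in replicate 1, against 36.5 TPM in replicate 2, with a mean of 55.1 ± 26.3 TPM (SD, n = 2). Protein-coding transcripts made up 74.2% of that level in replicate 1 and 91.6% in replicate 2. The leading transcript differed: Ubtf-210 led in replicate 1 with 28.2% of the gene's TPM, against 15.4% in replicate 2, and Ubtf-213 led in replicate 2 with 36.9%, against 4.0% in replicate 1. Ubtf-204 held 21.7% in replicate 1 and 31.0% in replicate 2. The retained-intron Ubtf-212 held 24.4% in replicate 1 and 4.13% in replicate 2.

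Ubtf-210 and Ubtf-213 differ by an exon of 111 bases, exon 8 of the 21 in Ubtf-210, at chr11:102310926-102311036 (mm10, minus strand). The long and short proteins, UBF1 and UBF2, differ by an exon within an HMG box, and UBF1 is the form known to activate Pol I. The exon is shown because the transcripts with and without it changed places between the libraries in the TPM given above, though not in the read-based table. It is given on the gene's strand in the M21 transcript.
Ubtf exon 8: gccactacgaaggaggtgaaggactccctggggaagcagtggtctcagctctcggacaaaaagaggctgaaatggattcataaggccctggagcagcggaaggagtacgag
Of the 13 annotated Ubtf transcripts, 4 contain the exon, 5 join the flanking exons without it and 4 do neither. Transcripts with the exon summed to 32.2 TPM in replicate 1, against 8.14 TPM in replicate 2. Those without it summed to 21.4 TPM in replicate 1, against 25.0 TPM in replicate 2. The exon was thus in 60.1% of these transcripts by TPM in replicate 1 and in 24.6% in replicate 2. By expected counts the share was 64.1% in replicate 1 (exact 95% interval 63.3% to 64.8%) and 25.5% in replicate 2 (23.3% to 27.7%), intervals that cover counting error only and not the assignment of reads to transcripts. In the read-based table the share was lower in both libraries, 36.1% in replicate 1 and 12.9% in replicate 2, with replicate 1 again the higher. Transcripts without the exon were the higher in both libraries of that table. They summed to 38.7 TPM against 21.9 TPM with it in replicate 1, and to 12.8 TPM against 1.90 TPM in replicate 2. In that table Ubtf-210 was at 0 in replicate 1, and Ubtf-204 led there. Ubtf-213 was at 0.0026 TPM there in replicate 2, where Ubtf-201 led with 55.4%.

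Polr1a (chr6:71909053-71984935, plus strand) and Polr1b (chr2:129100995-129126594, plus strand) encode the largest and second-largest subunits of Pol I, which form its catalytic centre. Polr1a was at 3.96 TPM in replicate 1, against 2.83 TPM in replicate 2, with a mean of 3.40 ± 0.799 TPM (SD, n = 2). Polr1b was at 2.83 TPM in replicate 1, against 5.70 TPM in replicate 2, with a mean of 4.27 ± 2.03 TPM (SD, n = 2). Polr1b was the higher of the pair in replicate 2 and Polr1a in replicate 1, so their order did not hold. Their protein-coding parts differed more: nearly all of Polr1b came from its 2 protein-coding transcripts, which together held 93.6% of its TPM in replicate 1 and 97.5% in replicate 2. Polr1b-202 held 61.8% in replicate 1 and 25.3% in replicate 2, and Polr1b-201 held 31.8% and 72.3% in the same order.

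Polr1a has 1 annotated protein-coding transcript, Polr1a-201, with 34 exons and 9216 bases. It was at 0.46 TPM in replicate 1 and had 0 counts in replicate 2. Of the 74 expected counts of the gene in replicate 2, a count of 0 allows a share of up to 4.05%. The other reads were assigned to shorter transcripts. The retained-intron Polr1a-208 held 50.3% of the TPM in replicate 1 and 17.3% in replicate 2, and Polr1a-203, annotated for nonsense-mediated decay, held 38.1% and 30.4%. Polr1a-210, a retained-intron transcript of 554 bases, held 52.3% in replicate 2 on 7.74 expected counts and none in replicate 1. Per length, the protein-coding level of Polr1b was 5.76 times that of Polr1a in replicate 1. These protein-coding levels in the read-based table were 2.39 TPM for Polr1b and 0.0926 TPM for Polr1a in replicate 1.

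The other Pol I subunits, from the list of 13 with Polr1a and Polr1b, spanned a wide range, and 9 of the 13 were detected in both libraries. Of the subunits shared by RNA polymerases I, II and III, 3 were the highest of the list in replicate 1 and 2, Polr2h and Polr2k, were the lowest. Polr2f was at 157 TPM in replicate 1, against 26.6 TPM in replicate 2, Polr2e was at 91.2 TPM and 17.5 TPM, and Polr2l at 53.7 TPM and 14.4 TPM. Polr1d, shared with RNA polymerase III, was at 53.3 TPM in replicate 1, against 82.9 TPM in replicate 2. Polr1c, its partner in both enzymes, was at 13.0 TPM in replicate 1, against 6.44 TPM in replicate 2. Among subunits of Pol I alone, Cd3eap was at 24.2 TPM in replicate 1, against 23.2 TPM in replicate 2, and Twistnb, which forms the stalk of the enzyme, was at 4.98 TPM and 38.8 TPM. Most of the Twistnb level came from transcripts that are not protein-coding: over protein-coding transcripts it was at 1.48 TPM in replicate 1, against 0.20 TPM in replicate 2. The other 4 subunits were low: Znrd1 was at 1.68 TPM and 0.56 TPM, Polr1e at 0.99 TPM and 0.03 TPM, Polr2h at 0.86 TPM and 0.49 TPM, and Polr2k at 0.34 TPM and 0 TPM, replicate 1 first in each. Replicate 2 held 5 counts or fewer for each of these 4, so their levels there could not be measured at this depth.

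Fbl (chr7:28169710-28179269, plus strand) encodes fibrillarin, the methyltransferase of box C/D snoRNPs. It was at 142 TPM in replicate 1, against 70.1 TPM in replicate 2, with a mean of 106 ± 51.1 TPM (SD, n = 2), which put it among the top 3.68% and 6.72% of protein-coding genes. The full-length protein-coding Fbl-201 held 86.0% of the TPM in replicate 1 and 28.2% in replicate 2. The retained-intron Fbl-205 held 2.57% in replicate 1 and 60.5% in replicate 2, and the retained-intron Fbl-203 held 10.2% and 10.4%. In the read-based table the split was different again: Fbl-201 held 50.9% in replicate 1 and 24.1% in replicate 2, and Fbl-203, not Fbl-205, took most of the rest, with 47.6% and 68.7%. Both tables gave a smaller Fbl-201 share in replicate 2.

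Nop56 (chr2:130274430-130279313, plus strand) and Nop58 (chr1:59684971-59719044, plus strand) encode paired scaffold proteins that hold the box C/D guide RNA and fibrillarin together. Nop56 was at 16.1 TPM in replicate 1, against 31.5 TPM in replicate 2, with a mean of 23.8 ± 10.9 TPM (SD, n = 2). Nop58 was at 28.8 TPM in replicate 1, against 0.81 TPM in replicate 2, with a mean of 14.8 ± 19.8 TPM (SD, n = 2). The pair thus stood in opposite order: Nop56 was at 0.559 times the gene level of Nop58 in replicate 1 and 38.9 times in replicate 2. Over protein-coding transcripts alone Nop56 was at 1.66 times Nop58 in replicate 1 and 1.75 times in replicate 2. In TPM of protein-coding transcripts these were 12.3 for Nop56 and 7.42 for Nop58 in replicate 1, and 0.84 and 0.48 in replicate 2. The last pair rests on 10.1 and 3 expected counts. In the read-based table the protein-coding order was the other way, with Nop56 at 9.93 TPM and Nop58 at 22.5 TPM in replicate 1, and 1.05 TPM and 1.99 TPM in replicate 2.

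Behind the gene level of Nop56 stood different transcripts in each library. The full-length protein-coding Nop56-202, of 12 exons, held 49.4% in replicate 1 on 995 expected counts and 0.635% in replicate 2 on 4.30. The shorter protein-coding Nop56-201 held 20.7% in replicate 1 and none in replicate 2. The retained-intron Nop56-217, of 445 bases and 2 exons, held 0.744% in replicate 1 and 67.5% in replicate 2. The retained-intron Nop56-219 held 1.67% and 17.7%, and Nop56-216 held 14.2% and 6.47%. For Nop58 the processed transcript Nop58-214 led in replicate 1 with 57.3%, followed by the protein-coding Nop58-206 with 19.3% and the retained-intron Nop58-208 with 12.6%. In replicate 2 Nop58 had 4 expected counts in all, 3 of them on Nop58-206 and 1 on Nop58-205, so no share could be measured there. In the read-based table Nop58-206 led in replicate 1 with 52.8%, Nop58-214 held 31.5% and Nop58-208 was at 0.

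Dkc1 (chrX:75095854-75109777, plus strand) encodes dyskerin, the pseudouridine synthase of box H/ACA snoRNPs, which also holds telomerase RNA. By gene TPM it was the lowest of the 10, at 1.35 TPM in replicate 1, against 0.15 TPM in replicate 2, with a mean of 0.750 ± 0.849 TPM (SD, n = 2), on 174 and 5 expected counts. The authors' interval for the posterior estimate in replicate 2 spanned 0.872 to 2.80 TPM, above the maximum likelihood value. Their read-based table gave 2.93 TPM in replicate 1, against 4.76 TPM in replicate 2, the opposite order, and above Polr1b in both libraries. Dkc1-201, protein-coding, held 59.3% of the gene's TPM in replicate 1 and all of it in replicate 2, and Dkc1-210, annotated for nonsense-mediated decay, held 31.1% in replicate 1. The other 3 core proteins of this snoRNP were all higher in both libraries: Nhp2 was at 53.4 TPM and 37.2 TPM, Gar1 at 21.6 TPM and 14.6 TPM, and Nop10 at 18.6 TPM and 11.9 TPM. Snu13, the fourth core protein of box C/D snoRNPs beside Fbl, Nop56 and Nop58, was at 30.5 TPM in replicate 1, against 4.74 TPM in replicate 2.

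Npm1 (chr11:33152287-33163206, minus strand) encodes nucleophosmin, an abundant nucleolar chaperone of ribosome assembly. It was at 20.6 TPM in replicate 1, against 9.57 TPM in replicate 2, with a mean of 15.1 ± 7.82 TPM (SD, n = 2). Protein-coding transcripts held 77.5% of the TPM in replicate 1 and 16.6% in replicate 2. Npm1-204 led in replicate 1 with 60.2% and had 0 counts in replicate 2. Npm1-206, a processed transcript of 450 bases, held 22.2% in replicate 1 and 83.4% in replicate 2, and the protein-coding Npm1-203 held 13.4% and 16.6%. Replicate 2 had 48 expected counts for the gene. The read-based table gave Npm1-206 a level of 0 in replicate 2 and placed all of the Npm1 level there, 3.26 TPM, on protein-coding transcripts.

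Ncl (chr1:86344719-86359400, minus strand) encodes nucleolin, an RNA-binding protein of the nucleolus that acts on the precursor RNA. It had the highest level of the 10, at 564 TPM in replicate 1, against 192 TPM in replicate 2, with a mean of 378 ± 263 TPM (SD, n = 2). This put it in the top 0.881% and 3.02% of protein-coding genes. The retained-intron Ncl-205 held 94.3% of that level in replicate 1 and 96.8% in replicate 2. It has 2 exons and 601 bases and lies at chr1:86350496-86351211 (mm10, minus strand), within the span of the longest protein-coding transcript. By expected counts, which do not weight short transcripts up, Ncl-205 held 72.2% in replicate 1 and 82.2% in replicate 2, and a second retained-intron transcript, Ncl-202, of 3072 bases, held 21.1% and 11.5%. The 2 protein-coding transcripts, Ncl-201 and Ncl-203, held 6.68% of the counts in replicate 1 (exact 95% interval 6.37% to 7.0%) and 6.33% in replicate 2 (5.06% to 7.76%). In the read-based table Ncl-205 likewise led in both libraries, with 89.8% of the TPM in replicate 1 and 94.0% in replicate 2. Over protein-coding transcripts Ncl was at 7.92 TPM in replicate 1, against 1.91 TPM in replicate 2, and came sixth of the 10.

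**Figure D2:**
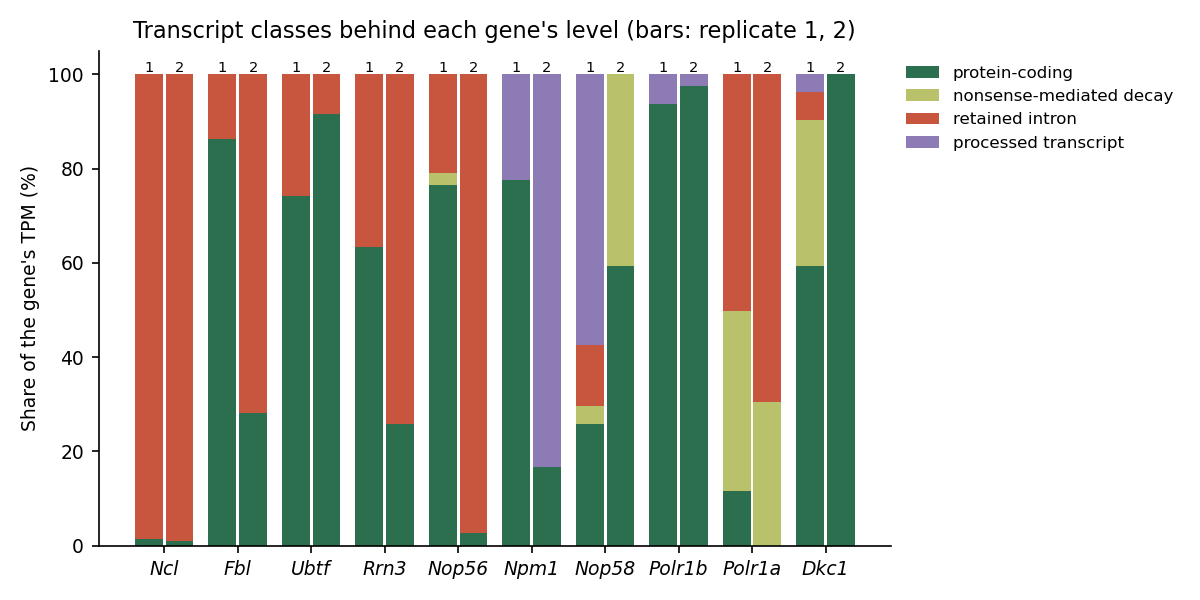
Share of each gene's TPM, in percent, by annotated class of transcript, with replicate 1 as the left bar and replicate 2 as the right bar of each gene. Polr1b and Ubtf are mostly protein-coding in both libraries, Ncl is mostly retained intron in both, and Fbl, Rrn3, Nop56 and Npm1 have a smaller protein-coding share in replicate 2 in this table.

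Across the 10 genes the median share of protein-coding transcripts was 68.8% of TPM in replicate 1 and 27.0% in replicate 2. The read-based table did not show this difference: there the median of the 10 was 67.8% in replicate 1 and 71.1% in replicate 2. The medians over 7040 protein-coding genes with both kinds of transcript and at least 50 expected counts on average were 83.7% in replicate 1 and 83.5% in replicate 2, and 80.9% and 77.6% in the read-based table. By expected counts the medians of the 10 were 88.3% in replicate 1 and 49.1% in replicate 2, beside 91.4% and 90.6% over the 7040. The leading transcript was not protein-coding for 3 of the 10 genes in replicate 1, namely Ncl, Nop58 and Polr1a, and for 6 in replicate 2, namely Ncl, Fbl, Nop56, Rrn3, Polr1a and Npm1. In the 7040 genes this held for 30.8% in replicate 1 and 36.5% in replicate 2. The read-based table had a leading transcript that is not protein-coding for 2 of the 10 in replicate 1 and 4 in replicate 2, where Rrn3 and Npm1 had a protein-coding leading transcript. The leading transcript was the same in both libraries for 2 of the 10, Ncl and Dkc1, and for 61.4% of the 7040. That count depends on the quantification, since the read-based table had the same leading transcript for 6 of the 10. Shares of the 7040 by leading transcript were not computed in the read-based table, so its counts have no background beside them. At 1 TPM of protein-coding transcripts, 8 of the 10 genes were detected in replicate 1 and 6 in replicate 2: Fbl, Ubtf, Rrn3, Npm1, Ncl and Polr1b. The share of all genes detected by this rule was not computed, so these counts have no background beside them. The protein-coding share was smaller in replicate 2 for 6 of the 10, beside 46.1% of the 7040, and in the read-based table for 5 of the 10, beside 51.4%. Those 6 genes had 48 to 1315 expected counts there, and the other 4 had 4 to 1609; the part of depth in these shares was not tested.

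Ncl, Nop56, Nop58 and Dkc1 each hold snoRNA genes on their own strand, 13 in all, and the other 6 genes hold none. Such a gene is held by 2.04% of the protein-coding genes with at least 50 expected counts on average. All 13 snoRNA genes had 0 expected counts in both libraries. For 10 of the 13 the authors' table gives an effective length of 0 in both libraries, so their 0 in that table is not a measure of the snoRNA. The rest, Snora75, Gm24451 and Gm25520, have effective lengths of 1.56 to 10.94 bases there, so their 0 says little either. The read-based table gave a level above 0 to 5 of the 13 in replicate 1, among them Snord82 at 4.78 TPM and Gm24451 at 0.429 TPM, and in replicate 2 to Gm24451 alone, at 2.25 TPM.

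For Ncl, Nop56 and Nop58 a non-coding transcript that led in at least 1 library covers a snoRNA gene, in whole or in part. Those 3 snoRNA genes are shown here, from the M21 transcript sequences on mm10, 5′ to 3′ on their own strand. Gm23187 (chr2:130277195-130277280, plus strand) lies wholly within the last exon of Nop56-217, and Gm26293 (chr1:59692509-59692592, plus strand) wholly within the last exon of Nop58-214. Their capitals mark every match to ATGATG and CTGA, the letters at the heart of the C and D boxes. For Snora75 (chr1:86351169-86351301, minus strand) the capitals mark the 43 bases at its 3′ end that Ncl-205 covers.
Gm23187: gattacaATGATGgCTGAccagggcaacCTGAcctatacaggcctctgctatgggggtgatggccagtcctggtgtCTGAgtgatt
Gm26293: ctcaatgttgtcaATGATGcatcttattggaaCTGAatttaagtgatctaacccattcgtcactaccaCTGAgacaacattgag
Snora75: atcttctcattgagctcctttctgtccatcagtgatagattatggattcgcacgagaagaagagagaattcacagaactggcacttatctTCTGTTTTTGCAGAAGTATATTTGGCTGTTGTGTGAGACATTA
Transcripts whose exons cover snoRNA bases held 94.4% of the TPM of Ncl in replicate 1 and 96.8% in replicate 2. For Nop56 they held 41.6% in replicate 1 and 79.6% in replicate 2. For Nop58 they held 70.3% in replicate 1, and replicate 2 had too few counts for a share. These shares were smaller in replicate 1 by expected counts, 23.7% for Nop56 and 47.9% for Nop58, and in the read-based table, 25.3% for Nop56 and 31.7% for Nop58. No annotated Dkc1 transcript covers its snoRNA gene. Reads of a host transcript and of a snoRNA precursor cannot be told apart where they overlap. Of the 157 snoRNA hosts among the 7040 genes, the leading transcript was not protein-coding for 40.1% in replicate 1 and 46.5% in replicate 2.

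**Figure D3:**
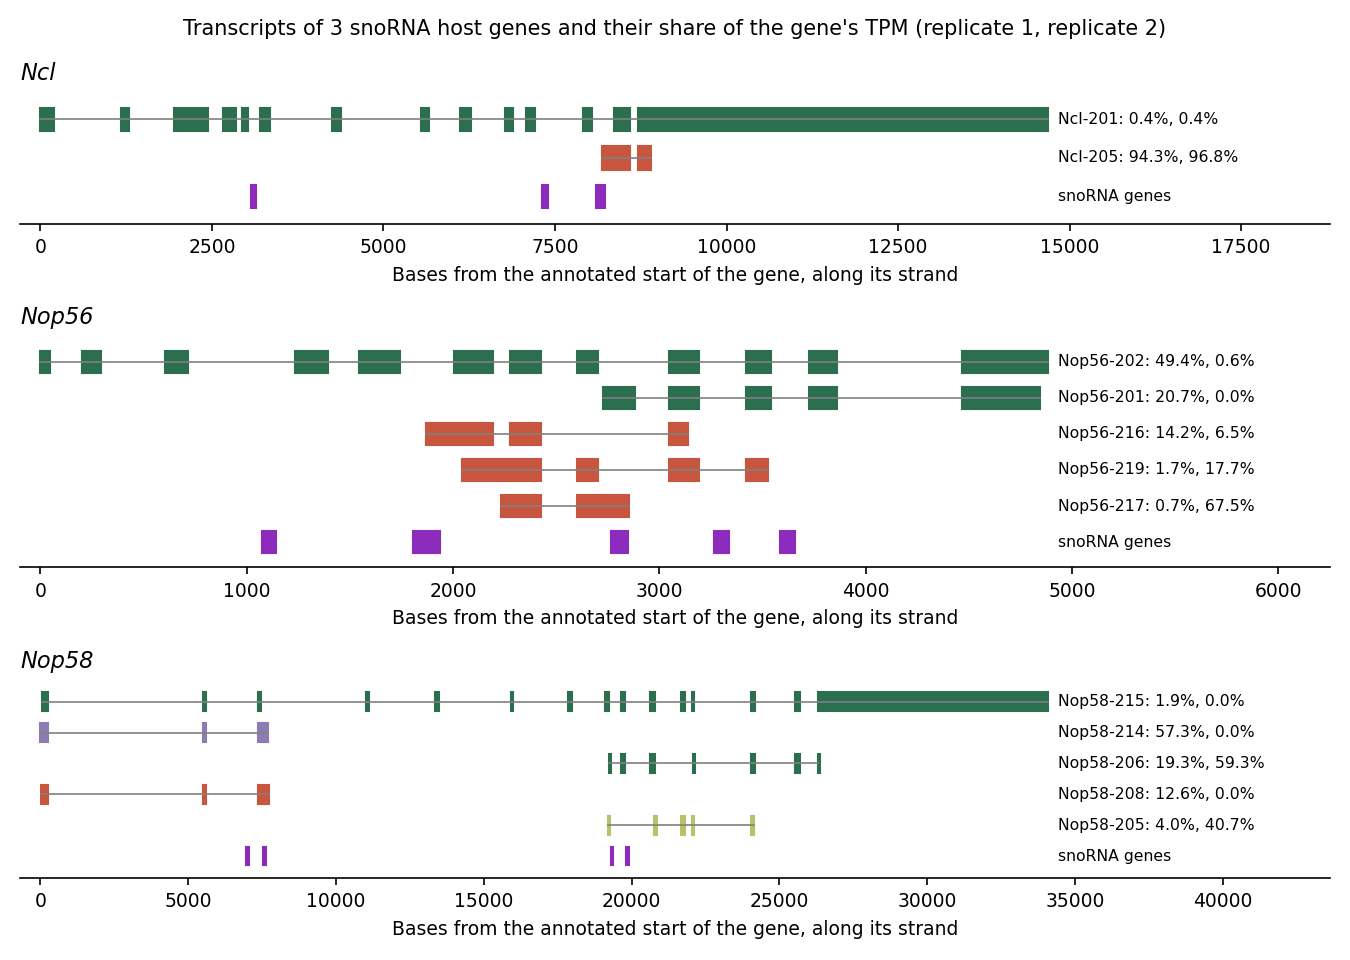
Exons of the longest protein-coding transcript (top row, green) and of each transcript with at least 10% of the gene's TPM in either library, for Ncl, Nop56 and Nop58, against bases from the annotated gene start; other green rows are protein-coding, red rows retained intron, lilac rows processed and yellow-green rows nonsense-mediated decay transcripts, and purple boxes are snoRNA genes. The retained-intron Ncl-205 (94.3% and 96.8% of TPM) spans 716 bases of the gene, and Nop56-217 (0.744% and 67.5%) ends just past a snoRNA gene.

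In the ratio of replicate 1 over replicate 2, 8 of the 10 genes were over 2-fold apart in TPM, beside 50.9% of the 9029 genes with at least 50 expected counts on average. Of these, 7 were higher in replicate 1 (35.4% of the 9029) and 1, Polr1b, was higher in replicate 2 (15.5% of the 9029). In the read-based table the log2 ratio of Polr1b was 1.02, beside a median of 1.77 for all genes. It was -0.61 after rescaling that table over nuclear protein-coding genes. With TPM rescaled over nuclear protein-coding genes the split was 5 and 2, and in CPM or with edgeR TMM scaling it was 7 and 0, beside 50.8%, 51.0% and 47.8% of all genes over 2-fold apart under these settings. Nop56, with a log2 ratio of -0.97, and Polr1a, with 0.48, stayed within 2-fold. The median log2 ratio of the 10 was 1.04, beside 0.39 for the 9029 genes. Counted relative to that median of 0.39, 5 of the 10 were over 2-fold apart, 3 higher in replicate 1 and 2 higher in replicate 2, which is near the 51.0% of all genes under the same centring.

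The gene levels in TPM divide by an average length that follows the transcript mixture, and this length differed between the libraries. For Nop56 the effective length was 1238 bases in replicate 1 and 435 bases in replicate 2. Counts scaled to the library total alone (CPM) put Nop56 at 20.2 CPM in replicate 1 and 12 CPM in replicate 2, the opposite order to TPM. Npm1 was at 17.6 CPM in replicate 1 and 3.40 CPM in replicate 2, a ratio of 5.17 (exact 95% interval 3.87 to 7.05, counting error only), where the TPM ratio was 2.16. For Ubtf the CPM ratio was 1.80 (1.71 to 1.90) and for Polr1b 0.645 (0.551 to 0.758). Nop58 gave the widest ratio, 66.6 (25.9 to 245), on 1348 expected counts in replicate 1 and 4 in replicate 2. In CPM 9 of the 10 genes were higher in replicate 1 and Polr1b was the exception. The 9029 genes leaned the same way by their median: the median log2 ratio in CPM was 1.79 for the 10, beside 0.64 for the 9029. The 7 over 2-fold higher in replicate 1 by CPM stand beside 41.3% of the 9029 genes.

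**Figure D4:**
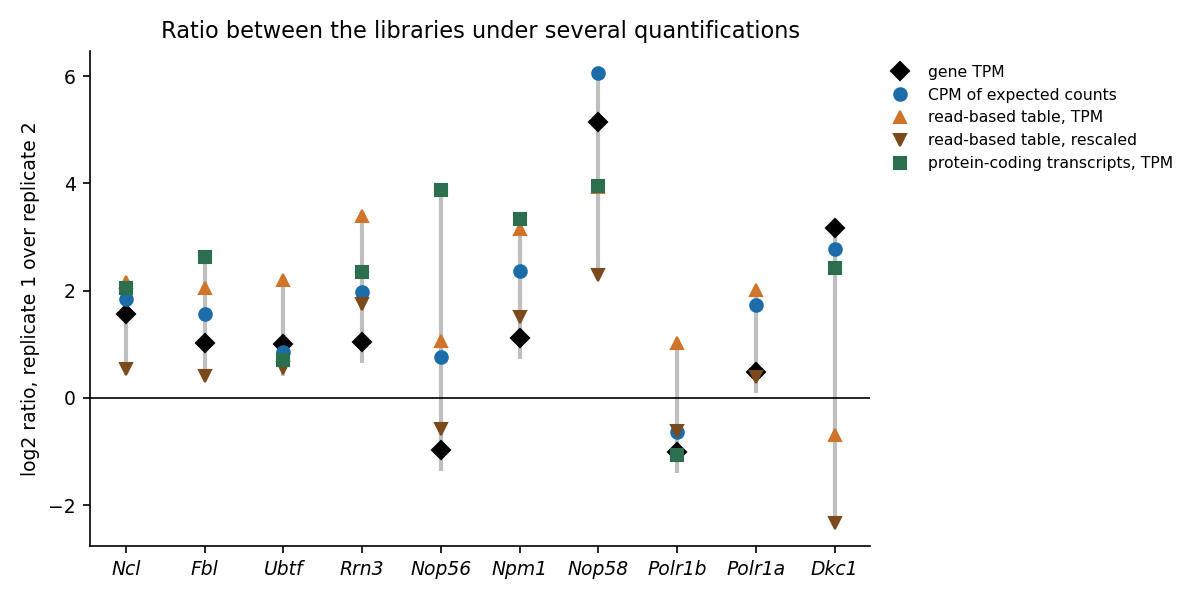
Log2 ratio of replicate 1 over replicate 2 for each gene, from gene TPM (black), CPM of expected counts (blue), the read-based table as deposited (orange) and rescaled over nuclear protein-coding genes (brown), and protein-coding transcripts only (green); grey bars span all settings tried. Nop56, Polr1b and Dkc1 have settings on both sides of 0, and the other 7 do not; Polr1a has no point for protein-coding transcripts, which had 0 counts in replicate 2.

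Near-identical copies could take or give reads for 5 of the 10 genes: other genes have transcripts that match at 90% identity or more over at least 300 bases for Npm1, Nop56, Fbl, Dkc1 and Ncl. The 8 processed pseudogenes of Npm1 held 3.76 expected counts in replicate 1 and 0 in replicate 2, and the 5 of Nop56 held 2.00 and 0. The copies of Dkc1 and Ncl held 0 in both. For Fbl the processed pseudogene Gm5812 held 101.2 expected counts in replicate 1 and 7.28 in replicate 2. Non-coding transcripts of Tulp4 also match Fbl, and the most abundant of them, Tulp4-202, with 434 matching bases at 92.4% identity, was at 6.26 TPM in replicate 1, against 47.1 TPM in replicate 2, so the Fbl level is uncertain by the reads shared with it. Genes on the other strand overlap Nop56 (Idh3b, by 5 bases), Dkc1 (Mpp1, by 45 bases) and Polr1a (Gm19078 and Gm26628, both with 0 counts); no source used here says whether counting was stranded.

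The wider pathway was described with 9 lists that hold 115 genes, of which 114 were found and Ptrf was not. Of the 114, 82 were detected in both libraries, and without the 10 genes 74 of 104 were. The median level of the 104 was 9.25 TPM in replicate 1, against 4.23 TPM in replicate 2, below the medians of the 10. Of the 91 of them with at least 50 expected counts on average, 47 were over 2-fold higher in replicate 1 and 9 in replicate 2. Of the 9029 genes, 35.4% and 15.5% were, in the same order. The median log2 ratio of the 91 was 1.22, beside 0.39 for the 9029. The direction between the libraries was therefore confined neither to the 10 genes nor to the pathway lists. The leading transcript was not protein-coding for 23 of 76 of the other pathway genes with both kinds of transcript in replicate 1 and for 32 in replicate 2. This held for 30.8% and 36.5% of the 7040 genes.

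Of the 10 Pol I initiation and termination factors found, 7 were detected in both libraries. Taf1c, a subunit of the promoter selectivity factor SL1, was at 41.2 TPM in replicate 1, against 189 TPM in replicate 2, the highest mean of that list, and Ubtf came next. Over protein-coding transcripts Taf1c was at 27.4 TPM and 27.6 TPM, below Ubtf at 54.7 TPM and 33.5 TPM, replicate 1 first in each. Taf1b and Taf1a, which join Taf1c in SL1, were the lowest, at 1.36 TPM and 0.41 TPM in replicate 1 and 0 TPM and 0.49 TPM in replicate 2. Of the 9 snoRNP assembly genes 7 were detected in both. Ruvbl2, an ATPase of the R2TP complex, was at 157 TPM in replicate 1, against 175 TPM in replicate 2. Over protein-coding transcripts Ruvbl2 was at 78.9 TPM in replicate 1, against 30.5 TPM in replicate 2. Its partner Ruvbl1 was at 7.65 TPM in replicate 1, against 0.16 TPM in replicate 2, where it had 3 expected counts. Pih1d1, another R2TP subunit, was at 50.9 TPM in replicate 1, against 25.5 TPM in replicate 2. The lowest of this list were Znhit3, at 1.33 TPM in replicate 1, against 1.31 TPM in replicate 2, and Znhit6, at 1.77 TPM and 0.15 TPM.

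All 8 nucleolar chaperones and abundant nucleolar proteins were detected in both libraries. Nop53, a factor of large subunit maturation, was the highest, at 763 TPM in replicate 1, against 410 TPM in replicate 2, above Ncl in both. Like Ncl it drew most of its level from transcripts that are not protein-coding, with a protein-coding share of 9.13% in replicate 1 and 22.5% in replicate 2. Gnl3 and Nop2, both known for roles in proliferating cells, were the lowest, at 5.43 TPM and 7.56 TPM in replicate 1 and 1.83 TPM and 2.03 TPM in replicate 2. Small subunit processing genes were detected in both libraries for 22 of 32, from Rrp9, at 51.5 TPM in replicate 1, against 204 TPM in replicate 2, and Imp3, at 32.8 TPM and 46.5 TPM, down to Wdr3, at 0.35 TPM and 0.25 TPM, and Nol11, at 0.39 TPM and 0.08 TPM. Over protein-coding transcripts Rrp9 was at 22 TPM in replicate 1, against 13.1 TPM in replicate 2. Large subunit processing genes were detected for 23 of 31, from Rrp1, at 181 TPM in replicate 1, against 57.1 TPM in replicate 2, and Ppan, at 71.2 TPM and 48.7 TPM, down to Mdn1, at 0.38 TPM and 0.05 TPM, and Noc3l, at 0.25 TPM and 0 TPM. Rrp1 was at 113 TPM in replicate 1, against 6.82 TPM in replicate 2, over protein-coding transcripts. The tissue-restricted paralogs Npm2, Fbll1 and Ubtfl1 reached at most 0.03 TPM.

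**Figure D5:**
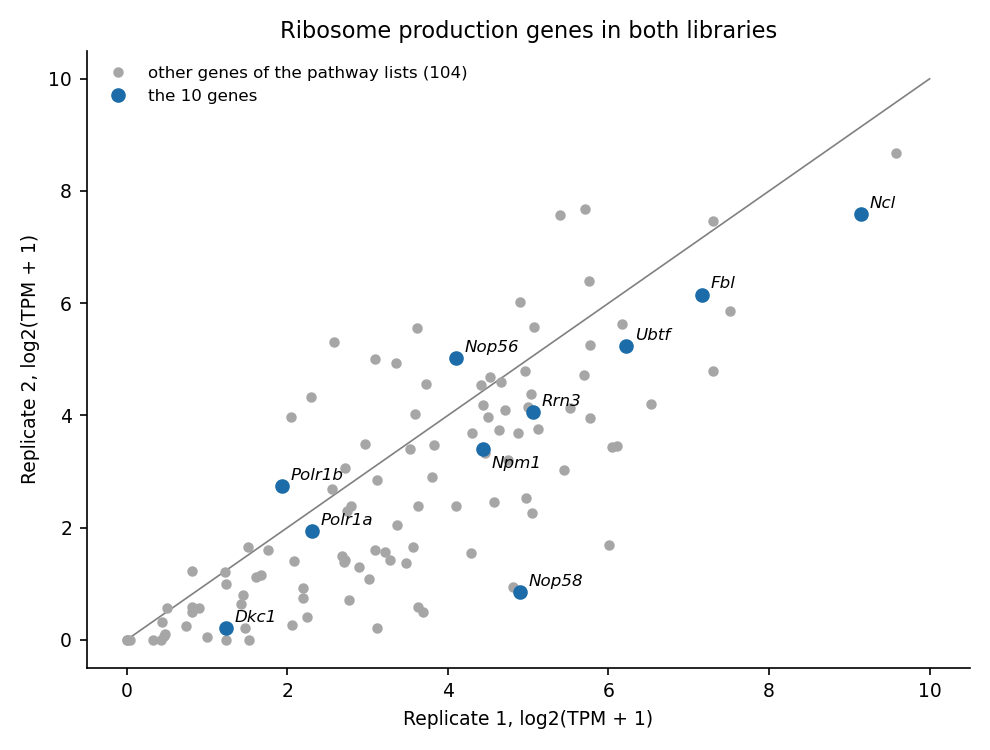
Level of each gene of the pathway lists in replicate 1 (horizontal) and replicate 2 (vertical), as log2(TPM + 1), with the 10 genes in blue and the other 104 in grey; the line marks equal levels. Of the 10, only Nop56 and Polr1b lie above the line.

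Promoter sequences, from 250 bases before to 50 bases after the start, were in the RefSeq table (GRCm38.p6) for 8 of the 10 genes, in 13 windows; Npm1 and Fbl are not among them. The windows were searched on both strands for 4 motifs. The E-box CACGTG, which MYC and other basic helix-loop-helix proteins can bind, was in the promoter of Rrn3 alone, beside 7.15% of 32851 windows in the table. The ETS motif CCGGAAG was likewise found for Rrn3 alone, beside 8.86% of all windows, and TATAAA, the letters of the TATA box, for Dkc1 alone, beside 13.6%; that match is on the reverse strand, 189 bases before the start. CCAAT was found for Nop56, Polr1a, Ubtf and Dkc1, in 4 of the 13 windows, beside 37.4% of all windows. The Dkc1 match lies 25 bases after the start. The Ubtf window with the match, chr11:102320813-102321112, lies wholly before the M21 gene, which begins at 102319742 on the minus strand. The other Ubtf windows lack the motif. The 100 bases before the Rrn3 start, at chr16:13780599-13780698 on the plus strand, are shown because they hold the nearer of its 2 E-boxes, in capitals, 48 bases before the start.
Rrn3 promoter: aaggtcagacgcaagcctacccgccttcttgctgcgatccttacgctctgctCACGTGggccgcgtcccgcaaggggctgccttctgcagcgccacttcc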

How the data were processed

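Each library's gene and transcript tables were used as deposited. Per the deposited descriptions, reads were placed on mm10 and quantified against GENCODE M21 and M4, and a further M21 transcript table was made from the reads themselves; the sources used here do not name the aligner or quantifier. Expected counts, as deposited, estimate the fragments of each gene or transcript. The authors' TPM are abundances corrected for length and library total, as maximum likelihood and posterior mean estimates, per the file headers. The deposited interval bounds and effective lengths are the authors' other values. The deposited percent column, each transcript's part of its gene, was recomputed here from TPM. The coverage signal tracks that the deposited descriptions list were not used.

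Members and gene lists were chosen with earlier results of these data known. Detection was 1 TPM in both libraries, and genes compared had a mean expected count of at least 50. A leading transcript has the highest TPM of its gene. Classes of transcript, coordinates and exons are from GENCODE M21. Copies were found with BLAST+ 2.17.0. Named genes were the 10 members, all Pol I subunits and snoRNP core genes, transcripts with at least 10% of a gene's TPM, and the 2 highest and 2 lowest genes of each other list by mean TPM. Ruvbl1 was named after its values were seen, and other genes only as overlaps or copies of members. Intervals are exact (Clopper-Pearson) at 95%, a count of 0 allows 3 counts, and both cover counting error only. Alternatives were the M4 and read-based tables, posterior means, rescaling over nuclear protein-coding genes, TPM + 1, CPM, scaling of rounded expected counts by edgeR TMM or DESeq2 size factors, centring, and each replicate alone. Python 3.11.15, pandas 2.3.3, scipy 1.17.1, matplotlib 3.10.9, R 4.3.3, edgeR 4.0.16 and DESeq2 1.42.0 were used.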

Additional observations from a re-analysis of the deposited data

How the results depend on the processing

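The number of detected genes among the 10 was 6 to 10 under every alternative run, within 1.5 times the 8 reported, and 8 to 10 with either replicate alone. Of the 114 pathway genes, 82 were detected, 83 to 99 with either replicate alone, and 50 at a threshold of 5 TPM. The median level of the 10, 19.5 TPM as a mean of both libraries, was 12.6 to 24.7 TPM with either replicate alone and 5.75 TPM over protein-coding transcripts alone, an alternative chosen after seeing the data. The number over 2-fold apart, 8, was 5 when centred on the median of all genes (beside 51.0% of all genes) and 4 in the read-based table rescaled over nuclear protein-coding genes (beside 36.7%), also chosen after seeing the data. The median log2 ratio of 1.04 stayed above 0 in every alternative run: 1.37 with M4, 2.11 in the read-based table, 1.79 in CPM, 1.44 with edgeR TMM, 1.36 with DESeq2 size factors, 0.65 when centred, 2.53 over protein-coding transcripts and 0.47 in the rescaled read-based table. The medians of all genes compared were 0.35, 1.77, 0.64, 0.29, 0.21, 0, 0.57 and 0.14 under these settings, in the same order. Staying above 0 was thus in part shared by all genes. The number of genes with the same leading transcript, 2, was 6 in the read-based table, 5 with M4, 1 with posterior means and 5 among protein-coding transcripts. No share of all genes was computed under these alternatives. The median protein-coding share of the 10 in replicate 1 minus that in replicate 2, 41.9 percentage points, was 39.2 by expected counts, 41.5 with posterior means and -3.32 in the read-based table, 3 alternatives chosen after seeing the data. Single genes changed side for 3 of the 10. The log2 ratio of Nop56 was -0.97 in TPM but 1.06 in the read-based table, 0.75 in CPM, 0.40 with TMM, 0.32 with DESeq2 size factors and 3.88 over protein-coding transcripts. That of Dkc1 was 3.17 but -0.70 in the read-based table and -2.34 after rescaling it, and that of Polr1b was -1.01 but 1.02 in the read-based table. The median of all genes in the read-based table was 1.77 before rescaling. After rescaling it, Nop56 was at -0.57 and Polr1b at -0.61, on the same side as in gene TPM. The cause was not tested. No paired analysis was possible because the series has 1 group. Replicate 2 held 4 expected counts for Nop58 and 5 for Dkc1, which limits both.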
